A study of Mus musculus with 11 samples.

Results

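Crush injury of the sciatic nerve was followed in dorsal root ganglia of 24-month-old mice. The comparison rests on 5 of the 11 labelled arrays of the series. They were the 3 arrays titled old pre-conditioned and the 2 titled old naive, chosen by those titles and the age label. All arrays of the series carried RNA of C57/BL6 mice, from the dorsal root ganglia at L4 and L5, extracted with Trizol, labelled with biotin through an Ambion MessageAmp kit and read on Illumina bead arrays. Old pre-conditioned ganglia were taken 5 days after sciatic nerve crush and old naive ganglia at day 0, as the series design was read, since its wording on days is ambiguous. The same states in 2-month-old mice, with 3 pre-conditioned and 3 naive arrays, are used only where the response at 24 months is set against that at 2 months. Neither the number of animals per array nor pooling is stated, so each p-value reflects only how far these samples spread, which may be technical.

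A dorsal root ganglion holds the cell bodies of the sensory neurons whose axons run in the peripheral nerve, each wrapped by satellite glia, together with Schwann cells, vessels and resident macrophages. When the peripheral axon is crushed, the neurons switch on a set of transcription factors and growth-associated genes, reduce many genes of excitability and transmission, and exchange signals with macrophages that gather around them. A crush made some days before a later lesion is called a conditioning injury, because the neurons then regrow axons more readily.

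Values are log2 normalised intensities, changes are log2 differences of old pre-conditioned minus old naive with their standard error, and adjusted p-values come from limma with Benjamini-Hochberg adjustment over 11529 genes. A gene was called at an adjusted p under 0.05, in a two-sided test. Each value is that of the brightest probe of the gene. Levels of different genes are not compared, because their probes differ. No detection p-values accompany the arrays, so how far a low level lies above background is not known.

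Before the results, the arrays themselves were compared. The median unprocessed intensity was 284.5 on old pre-conditioned 1, against 186.9 and 185.4 on the other pre-conditioned old arrays and 190.6 and 170.8 on old naive 1 and 2. Old pre-conditioned 1 also stood apart from all other arrays on the second principal component (14.25% of the variance, score -26.16), and its mean correlation with its group was the lowest of the 11 arrays (0.9838). The first component (57.91%) separated every pre-conditioned from every naive array. On all 5 old arrays, 16 of 20 sensory neuron markers, 14 of 17 myelinating Schwann cell markers and 8 of 12 satellite glia markers lay above the 75th percentile of the probes, against 1 of 19 skeletal muscle markers, 2 of 13 spinal cord glia markers and 0 of 16 bone and cartilage markers.

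Of the 11529 genes, 1911 changed after crush in old ganglia (16.6%): 934 rose (8.1%) and 977 fell (8.47%). The median difference over all genes was -0.01. In each of the 1911 genes the 3 pre-conditioned arrays lay wholly above or wholly below the 2 naive arrays. Such separation was common, with 2192 genes wholly higher and 2561 wholly lower among all 11529, so it adds no separate support to the calls. Among changes of at least 2-fold the balance tilted upward, with 222 genes higher and 74 lower. At least 4-fold changes were 44 increases and 0 decreases, and 8 genes rose at least 16-fold. Without old pre-conditioned 1, 1024 genes rose (8.88%) and 1270 fell (11%). The total was 997 without old naive 1 and 1228 without old naive 2, fits in which the lone naive array was assumed to vary like the other groups. Under median scaling 748 genes rose and 317 fell, so that increases made up 70.2% of the calls instead of 48.87%.

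**Figure D1:**
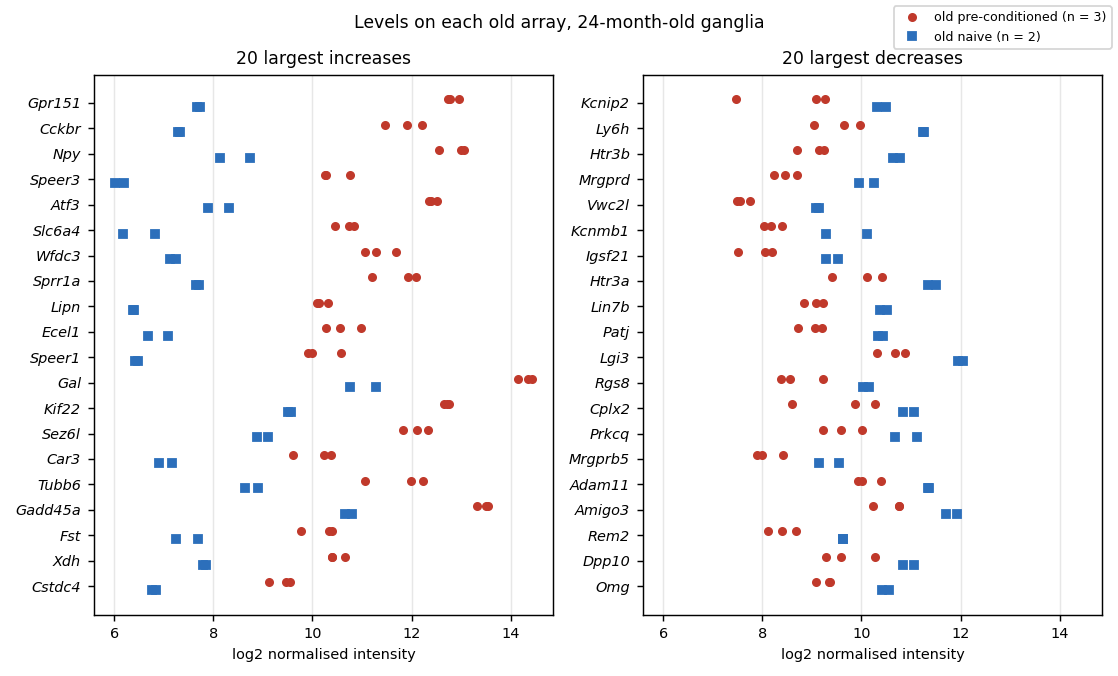
Log2 normalised intensity (horizontal axis) of the 20 genes with the largest increase (left panel) and the 20 with the largest decrease (right panel) on each of the 3 old pre-conditioned arrays (circles) and the 2 old naive arrays (squares). The genes were chosen among called genes without overlap, so the groups are separate in each by selection. The difference of the group means is 5.12 for Gpr151 and -1.22 for Omg, at the foot of the right panel.

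The largest increase was that of Gpr151, an orphan receptor gene of sensory neurons on chromosome 18 (probe ILMN_1242331). Gpr151 had levels of 12.74, 12.96 and 12.77 on the old pre-conditioned arrays, against 7.74 and 7.67 on the old naive arrays. The difference was 5.12 ± 0.12, or 34.7-fold (adjusted p = 1.2e-10). It was followed by Cckbr, a receptor for cholecystokinin and gastrin (4.56 ± 0.19), and by Npy, which encodes neuropeptide Y (4.44 ± 0.20). Slc6a4, the serotonin transporter gene, rose by 4.17 ± 0.18. Wfdc3, of the whey acidic protein domain family, rose by 4.16 ± 0.18 and Lipn, a lipase gene, by 3.80 ± 0.10. Speer3 (4.33) and Speer1 (3.71) rose as well, but come from a multigene family with very similar members, so their values are uncertain. Sez6l rose by 3.09 on its brightest probe, while its other probe gave 0.25 and was not called. Other genes among the 20 largest increases were Car3, a carbonic anhydrase gene (3.03), Gadd45a (2.73), the xanthine dehydrogenase gene Xdh (2.65) and Cstdc4, of the cystatin family (2.57).

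Of 27 transcription factors tied to axon injury, 9 rose and 0 fell, with a median of 0.30 against -0.01 over all genes (6 rose without either old naive array). Atf3, which is switched on in axotomised neurons and marks them, had levels of 12.40, 12.52 and 12.35 on the old pre-conditioned arrays, against 7.89 and 8.31 on the old naive arrays. The pre-conditioned arrays differed little among themselves and lay far above both naive arrays, by 4.32 ± 0.13, or 20-fold (probe ILMN_2619408 on chromosome 1, adjusted p = 6.25e-10). Nfil3, a basic leucine zipper factor, rose by 1.96 ± 0.12, Jun, a subunit of the AP-1 complex, by 1.19 ± 0.15 and the zinc finger factor Klf6 by 1.17 ± 0.13 (0.82 and not called on its other probe). Smad1, which carries bone morphogenetic protein signals, rose by 1.32 ± 0.20 on its brightest probe, by 1.19 on another and by 0.05, not called, on the remaining one. Smaller increases were those of Cebpb (0.64), Fos (0.61) and Crem (0.57, with 0.96 and 0.59, both called, on its other probes). The calls of Cebpb and Crem each ended when 1 old naive array was left out (naive 2 for Cebpb at 0.54, naive 1 for Crem at 0.40), and that of Fos when either was (0.72 and 0.49) or without old pre-conditioned 2 (0.54). Stat3, a mediator of cytokine signals, did not pass the test at 0.30 ± 0.13 (adjusted p = 0.152), nor did the immediate early gene Egr1 at -0.07 ± 0.23. Sox11 and Cebpd, 2 further factors of this group, are not analysed here.

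The bases upstream of the genes with the largest increases were read for motifs of transcription factors. Of the 20 genes with the largest increases, 15 had a promoter in RefSeq's table (build GRCm38.p6), and the 250 bases before the start were searched on both strands. The AP-1 motif TGANTCA was found in 2 of the 15, Sprr1a and Lipn, against 7.82% of all 27025 genes with a promoter and 6.27% of the tested genes with one. The composite C/EBP-ATF motif TGATGCAA was found in 1 of the 15, Atf3 itself, against 0.918% of all genes. The cAMP response element TGACGTCA (1.77% of all genes) and the STAT motif TTCCNGGAA (1.09%) were in 0 of the 15. Of the 20 genes with the largest decreases, 15 had a promoter. Among those, 1 held the AP-1 motif, Patj, and 0 held the other motifs. These are counts of letters in a window and not of bound sites. The windows with a match are printed 5′ to 3′ on the strand of the gene, with the match in capitals, to show where the letters lie. That of Atf3 is chr1:191183334-191183583 (minus strand), that of Sprr1a chr3:92485882-92486131 (minus strand) and that of Lipn chr19:34067108-34067357 (plus strand).
Atf3: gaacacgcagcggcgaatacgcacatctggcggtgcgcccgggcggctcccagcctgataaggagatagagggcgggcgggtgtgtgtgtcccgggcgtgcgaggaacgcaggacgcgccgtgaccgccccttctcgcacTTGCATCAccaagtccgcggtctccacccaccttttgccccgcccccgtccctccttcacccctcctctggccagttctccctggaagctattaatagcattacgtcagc
Sprr1a: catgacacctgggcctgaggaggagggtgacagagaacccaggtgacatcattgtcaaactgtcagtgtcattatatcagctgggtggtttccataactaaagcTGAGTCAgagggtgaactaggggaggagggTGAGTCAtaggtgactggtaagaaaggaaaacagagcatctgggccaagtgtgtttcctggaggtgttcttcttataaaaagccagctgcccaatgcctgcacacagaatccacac
Lipn: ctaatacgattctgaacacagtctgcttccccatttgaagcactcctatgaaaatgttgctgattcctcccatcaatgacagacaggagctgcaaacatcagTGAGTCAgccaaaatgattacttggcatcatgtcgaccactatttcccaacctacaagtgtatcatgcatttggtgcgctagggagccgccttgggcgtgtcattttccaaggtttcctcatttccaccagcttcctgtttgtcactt
The Atf3 match reads on the opposite strand and begins 110 bases before the start. Sprr1a holds the AP-1 letters at 2 places, beginning 146 and 116 bases before the start, and Lipn at 1 place, 148 bases before it.

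Of 48 genes of axon outgrowth and the growth cone, 20 rose and 0 fell, with a median of 0.40, and 28 were not called. Sprr1a, a small proline-rich protein induced in regenerating neurons, had levels of 11.21, 12.09 and 11.93 on the old pre-conditioned arrays, against 7.66 and 7.72 on the old naive arrays. Old pre-conditioned 1 was the lowest of its group, yet well above both naive arrays, and the difference was 4.05 ± 0.23, or 16.6-fold (adjusted p = 2.23e-07). Tubb6, a beta tubulin gene, rose by 2.99 ± 0.29, the adhesion protein gene Flrt3 by 2.56 ± 0.12 and Stmn4, which regulates microtubules, by 2.07 ± 0.19. Itga7, an integrin subunit that binds laminin, rose by 1.83 ± 0.11 and Plaur, the urokinase receptor gene, by 1.10 ± 0.14. The galectin gene Lgals1 rose by 0.99 ± 0.11. Chl1, a cell adhesion gene of the L1 family, rose by 1.46 ± 0.11, although its other probe gave 0.15 and was not called.

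Gap43, the growth-associated protein of the growth cone, varied widely within each group. Its levels were 11.94, 12.97 and 12.60 on the old pre-conditioned arrays, against 10.23 and 11.34 on the old naive arrays. The 2 naive arrays lay further apart than the lowest pre-conditioned array lay from the higher naive one. Gap43 rose by 1.72 ± 0.32 (adjusted p = 0.00307), and by 1.16 without old naive 1, where the adjusted p was 0.0523.

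Neuropeptide genes moved both ways. Of 23 genes of peptides and their processing, 9 rose and 6 fell, with a median of -0.22. Npy had levels of 12.56, 13.06 and 12.9998 on the old pre-conditioned arrays, against 8.13 and 8.74 on the old naive arrays. Gal, which encodes galanin, had 14.15, 14.44 and 14.36 on the old pre-conditioned arrays, against 10.76 and 11.27 on the old naive arrays. In both genes old pre-conditioned 1 was the lowest of its group and old naive 2 the higher naive array, with no overlap. Gal rose by 3.30 ± 0.15, Ucn, the urocortin gene, by 2.33 ± 0.17, and Grp, the gastrin-releasing peptide gene, by 1.42 ± 0.15. Ecel1, an endopeptidase of injured neurons, rose by 3.71 ± 0.19, the secretory protein gene Vgf by 1.10 ± 0.14 and Adcyap1, which encodes the peptide PACAP, by 0.96 ± 0.11. Tac1, the precursor of substance P, was among those that fell, by 0.67 ± 0.11 (-0.67, adjusted p = 0.0014), with 13.28, 12.998 and 13.17 on the old pre-conditioned arrays, against 13.81 and 13.82 on the old naive arrays. Nmb, which encodes neuromedin B, fell by 0.90 ± 0.10. Vip, another peptide gene often named with these, did not pass the filter on dim probes.

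Of 19 peptide and hormone receptors, 2 rose, Gpr151 and Cckbr, and 4 fell, with a median of -0.01. Over all genes 8.1% rose and 8.47% fell, and the count of receptors that rose lay near that share. The 4 that fell were Oprl1, the nociceptin receptor gene (-1.10 ± 0.16), the neurotensin receptor gene Ntsr2 (-0.99 ± 0.12), the delta opioid receptor gene Oprd1 (-0.61 ± 0.11) and the kappa opioid receptor gene Oprk1 (-0.37 ± 0.11). The call of Oprk1 ended without old naive 1 (-0.26), either of old pre-conditioned 1 and 2, or either of young naive 2 and 3. It also ended with the replicate block, under cyclic loess and median scaling, with no background correction (-0.1985) and in the authors' processed values (-0.1978).

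Among trophic factors and their receptors 11 of 35 rose and 6 fell (3 without either old naive array), with a median of 0.06. Fst, which encodes the activin-binding protein follistatin, had 9.76, 10.40 and 10.34 on the old pre-conditioned arrays, against 7.25 and 7.69 on the old naive arrays, a rise of 2.70 ± 0.22. Inhbb, a subunit of the activins themselves, rose by 2.52 ± 0.24, so that a ligand subunit and its binding protein rose together. Igfbp3, which binds insulin-like growth factors, rose by 2.23 ± 0.16 and Tgfb1 by 1.22 ± 0.10. Csf1, the macrophage growth factor that injured sensory neurons are known to make, had 9.003, 9.70 and 9.31 on the old pre-conditioned arrays, against 7.27 and 7.42 on the old naive arrays, a rise of 1.99 ± 0.18 (adjusted p = 1.49e-05). Gfra1, a receptor subunit for glial cell line-derived neurotrophic factor, rose by 0.86 ± 0.17 (0.65 and not called without old naive 2). Falls were those of Vegfb (-0.78 ± 0.11), Gfra4 (-0.59 ± 0.11) and the neurotrophin receptor gene Ntrk3 (-0.48 ± 0.10, not called without old naive 1 at -0.41, nor on its other 2 probes). Ntrk2, the receptor for brain-derived neurotrophic factor, was not called on its brightest probe (-0.09), but fell on another (-0.58, adjusted p = 0.0192). Bdnf itself gave -0.03 ± 0.10 on its brightest probe and 1.00 on another, called there at an adjusted p of 0.0219.

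Of 20 genes of the LIF family of cytokines and JAK-STAT signalling, 6 rose and 0 fell, with a median of 0.19 (3 rose without old naive 2). The feedback inhibitors of the pathway were prominent among them: Socs3 rose by 1.68 ± 0.20, Cish by 0.91 ± 0.12 and Socs2 by 0.73 ± 0.11. Socs3 had 10.27, 10.74 and 10.52 on the old pre-conditioned arrays, against 8.64 and 9.01 on the old naive arrays, without overlap. The cytokine genes Il6 and Lif were on the array but did not pass the filter on dim probes.

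Of 10 voltage-gated sodium channel genes and their partners, 9 fell and 0 rose, with a median of -0.59 (4 fell without old naive 1, 6 without old naive 2, 5 without old pre-conditioned 2 and 5 under median scaling). Scn1a fell by 0.87 ± 0.14 (-0.87), the beta subunit gene Scn4b by 0.75 ± 0.10 and Fgf12, an intracellular channel partner, by 0.73 ± 0.13 (-0.44 and not called on its other probe). Scn11a, a channel of nociceptors, had 13.78, 13.37 and 13.65 on the old pre-conditioned arrays, against 14.29 and 14.22 on the old naive arrays (-0.65 ± 0.13). Scn10a, the other nociceptor channel, fell by 0.56 ± 0.15 (adjusted p = 0.0198) and was not called without old naive 1 (-0.46) or old pre-conditioned 2 (-0.47). The decreases were modest, under 2-fold for each of these genes, and nearly the whole family shared them. In whole ganglia, fewer cells of a type and less RNA per cell cannot be told apart.

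Of 35 potassium channel genes, 23 fell and 1 rose, with a median of -0.69. Kcnip2, an accessory subunit of A-type channels, had 7.48, 9.07 and 9.27 on the old pre-conditioned arrays, against 10.31 and 10.50 on the old naive arrays. Its decrease of -1.80 ± 0.38 was enlarged by old pre-conditioned 1, and was -1.23 without that array. The call ended without old naive 2 (-1.70), and when limma was fitted to only the 5 old arrays (adjusted p = 0.0629). Kcnmb1, a subunit of large-conductance calcium-activated channels, fell by 1.4995 ± 0.22, and Dpp10, another accessory subunit of A-type channels, by 1.23 ± 0.23. Kcng4 (-1.18), the sodium-activated channel gene Kcnt1 (-1.08), Kcns1 (-0.95), Kcnip3 (-0.85), Kcnh2 (-0.80), Kcnk1 (-0.74) and Kcnip1 (-0.70) fell in all fits with 1 array left out. The single increase was that of Kcnmb4 (0.64), named here after its value was seen, and 0 rose without either old naive array. Calcium channel and HCN genes gave 4 decreases and 0 increases of 16, with a median of -0.25 (1 decrease without old naive 1 and under median scaling). They were Hcn2 (-0.85), Cacnb4 (-0.68), Cacna2d3 (-0.63) and Cacna1h (-0.60), and of these only Cacnb4 kept its call in every fit with 1 array left out, though not under median scaling (-0.59). Without old pre-conditioned 1 the decrease of Hcn2 was -0.52.

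Of 48 receptors and channels of sensory transduction, 16 fell and 2 rose, with a median of -0.27. Mrgprd, which marks non-peptidergic nociceptors, had 8.23, 8.46 and 8.69 on the old pre-conditioned arrays, against 9.96 and 10.24 on the old naive arrays. Every pre-conditioned array lay more than a log2 unit below both naive arrays, and the difference was -1.64 ± 0.19 (adjusted p = 8.72e-05). Htr3b and Htr3a, the subunits of the serotonin-gated ion channel, fell by 1.68 ± 0.17 and 1.45 ± 0.22, and Mrgprb5 by 1.24 ± 0.21. The nucleotide receptor gene P2ry1 (-1.12), the lysophosphatidic acid receptor gene Lpar3 (-1.11), the adrenergic receptor gene Adra2c (-0.90, with -0.22 and no call on its other probe) and the thrombin receptor gene F2r (-0.84) fell too. P2ry14, a receptor for UDP-glucose, rose by 1.11 ± 0.14. Trpv1, the capsaicin receptor gene, was not called at -0.29 ± 0.17 (10.30, 9.88 and 10.13 on the old pre-conditioned arrays, against 10.18 and 10.61 on the old naive arrays, which overlapped). P2rx3, an ATP-gated channel of nociceptors, was not called at 0.02 ± 0.16.

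Of 31 genes of synaptic vesicles and release, 10 fell and 2 rose, with a median of -0.26 (3 fell without old naive 1, and 5 under median scaling). Cplx2, a complexin that regulates vesicle fusion, had 8.59, 9.87 and 10.28 on the old pre-conditioned arrays, against 11.05 and 10.83 on the old naive arrays. Its decrease of -1.36 ± 0.35 shrank to -0.87 without old pre-conditioned 1, and was not called without either old naive array. Vamp1, of the vesicle fusion machinery, fell by 0.80 ± 0.10, while its other probes gave -0.71 (called), -0.19 and 0.27 (not called). Slc17a8, a vesicular glutamate transporter gene of low-threshold mechanoreceptors, fell by 0.82 ± 0.11. Among 28 receptors for GABA, glutamate, acetylcholine and glycine, 6 fell and 2 rose, with a median of -0.27 (3 fell and 1 rose without old naive 1, and 2 fell under median scaling). The muscarinic receptor gene Chrm2 fell by 1.10 ± 0.21, and the nicotinic receptor gene Chrna5 rose by 0.89 ± 0.11. The kainate receptor gene Grik1 fell by 0.79 ± 0.13, while its other probe gave -0.07 and was not called.

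Other large decreases lay outside these families. Ly6h, of the Ly6 family of membrane proteins, had 9.04, 9.64 and 9.98 on the old pre-conditioned arrays, against 11.25 and 11.26 on the old naive arrays (-1.70 ± 0.21). Vwc2l fell by 1.52 ± 0.12, the adhesion protein gene Igsf21 by 1.49 ± 0.18 and the scaffold protein genes Lin7b and Patj each by 1.40. Lgi3, a secreted neuronal protein gene, fell by 1.38 ± 0.14. Rgs8, which damps G protein signals, changed by -1.38 ± 0.21, and Prkcq, a protein kinase C gene, by -1.30 ± 0.22. Adam11 (-1.24), the adhesion gene Amigo3 (-1.23), Rem2, a small GTPase that regulates calcium channels (-1.23), and Omg, which encodes a myelin-associated inhibitor of axon growth (-1.22), completed the list of 20. Each of these genes was called in every fit that left out 1 array.

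Axon guidance genes gave 5 increases and 6 decreases among 44, with a median of -0.02 (3 and 4 without either old naive array). The semaphorin gene Sema6a rose by 1.33 ± 0.21 and Sema4a by 0.63 ± 0.13, while Sema3f fell by 0.91 ± 0.12. Rtn4, which encodes the growth inhibitor Nogo, rose by 0.89 ± 0.15, and of its other probes 2 were called (0.55 and 1.23) and 1 was not (0.52). Of 28 genes of the neuronal cytoskeleton, 2 rose and 2 fell, with a median of -0.13 (1 rose and 0 fell without old naive 1). The intermediate filament gene Ina, which encodes internexin, rose by 0.79 ± 0.14, and the heavy neurofilament gene Nefh fell by 0.41 ± 0.10, a call that ended without either old naive array. Over all genes 8.1% rose and 8.47% fell. The counts of the cytoskeleton list lay near those shares, and those of the guidance list not far above.

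**Figure D2:**
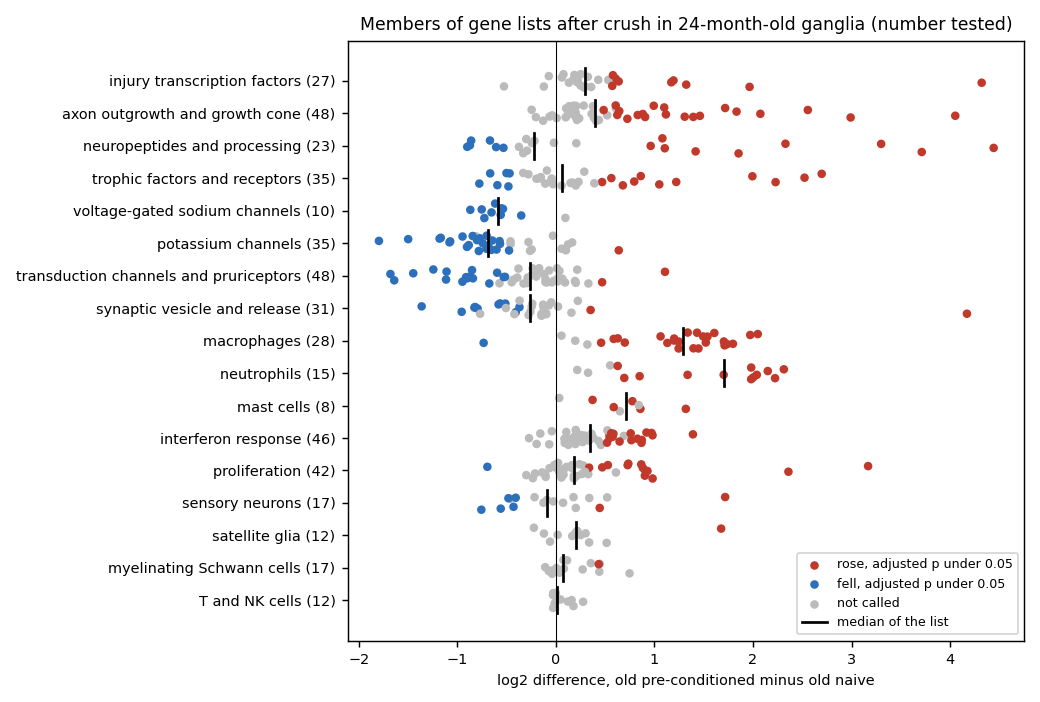
Log2 difference, old pre-conditioned minus old naive (horizontal axis), of every tested member of 17 gene lists (rows, with the number tested); red points rose, blue points fell and grey points were not called, and the black bar is the median of the list. Macrophage and neutrophil markers lie mostly to the right (medians 1.29 and 1.70), sodium and potassium channel genes to the left (medians -0.59 and -0.69), and sensory neuron markers and T and NK cell markers around 0 (medians -0.09 and 0.01).

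Macrophage genes rose broadly. Of 28 measured markers, 24 rose and 1 fell, with a median of 1.29 (17 rose without old naive 1). The mean level of the list, relative to the old naive mean, was 1.12, 1.27 and 1.04 on the old pre-conditioned arrays, against -0.01 and 0.01 on the old naive arrays. C1qc, a chain of complement component C1q, had 11.57, 11.35 and 11.21 on the old pre-conditioned arrays, against 9.04 and 9.62 on the old naive arrays, a rise of 2.05 ± 0.17 or 4.14-fold (adjusted p = 7.91e-06). The groups were separate by more than a log2 unit, and old naive 1 was the lower naive array. Ms4a6d rose by 1.97 ± 0.15, the mannose receptor gene Mrc1 by 1.80 ± 0.16, the lysozyme gene Lyz2 by 1.52 ± 0.12 (1.83, called, and 0.68, not called, on its other probes) and Laptm5, a lysosomal membrane protein gene of white blood cells, by 1.45 ± 0.11. The chemokine receptor gene Cx3cr1, a marker of resident macrophages and microglia, rose by 1.49 ± 0.16. The 1 decrease was that of Ly86 (-0.73), named here after its value was seen.

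Complement and Fc receptor genes, which overlap with the macrophage list, gave 14 increases and 1 decrease of 21, with a median of 0.79. Fcer1g, the shared signalling chain of Fc receptors, rose by 1.74 ± 0.22, C1qb by 1.71 ± 0.12, C1qa by 1.25 ± 0.11 and the Fc receptor gene Fcgr3 by 1.54 ± 0.11. Trem2, a lipid-sensing receptor of macrophages, rose by 1.70 ± 0.16 and its adaptor Tyrobp by 1.61 ± 0.19. Fcgr2b, the inhibitory Fc receptor gene, rose by 1.39 ± 0.14, and on its other probes gave 1.01 (called) and 0.11 (not called). The decrease was that of Cd55 (-0.92), a complement regulator named here after its value was seen.

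Chemokines, interleukins and their receptors gave 18 increases and 1 decrease of 51, with a median of 0.30 (11 increases without either old naive array). Ccl8, a monocyte chemoattractant, had 10.79, 11.02 and 10.65 on the old pre-conditioned arrays, against 8.48 and 8.72 on the old naive arrays, a rise of 2.22 ± 0.16. Ccl9 rose by 1.98 ± 0.14, Pf4 by 1.53 ± 0.22, Ccl12 by 1.42 ± 0.21 and the membrane-bound chemokine gene Cxcl16 by 0.83 ± 0.14. Il13ra1, a receptor chain for alternative macrophage activation, rose by 1.40 ± 0.17.

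Neutrophil markers rose too, and varied more between arrays. Of 15 measured, 12 rose and 0 fell, with a median of 1.70 (9 rose without old naive 1). The mean level of the list was 1.20, 1.52 and 1.48 on the old pre-conditioned arrays, against -0.29 and 0.29 on the old naive arrays. S100a9, a calcium-binding protein abundant in neutrophils, had 11.13, 12.13 and 11.89 on the old pre-conditioned arrays, against 8.77 and 10.04 on the old naive arrays. The naive arrays lay more than a log2 unit apart in S100a9, and the difference was 2.31 ± 0.34 (adjusted p = 0.000607), or 1.68 without old naive 1. The granule protein genes Ngp (2.22 ± 0.35), Camp (2.04 ± 0.29) and Ltf (2.00 ± 0.35), with Lcn2 (1.98 ± 0.33), the resistin-like gene Retnlg (2.15 ± 0.26) and Chil3 (1.70 ± 0.29), showed the same order of the naive arrays. Each of these 7 genes kept its call in every fit with 1 array left out. These granule genes are made while neutrophils mature in the marrow. Of 6 red cell markers 0 changed, and their mean level was 0.12, 0.92 and 0.04 on the old pre-conditioned arrays, against -0.46 and 0.46 on the old naive arrays. Old naive 2 was the higher naive array in both lists, while old pre-conditioned 2 stood out in the red cell list alone. Of 10 bone and cartilage markers, 0 rose and 2 fell (0 without old naive 1). The part of blood or marrow in the neutrophil result was not tested.

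Mast cell markers gave 5 increases and 0 decreases of 8, with a median of 0.71 (2 without old naive 1). Hdc, which makes histamine, had 9.79, 9.76 and 9.62 on the old pre-conditioned arrays, against 8.51 and 8.31 on the old naive arrays, a rise of 1.32 ± 0.11. The chymase gene Cma1 rose by 0.86 ± 0.17, and Cpa3, a mast cell carboxypeptidase gene, by 0.78 ± 0.15 (0.60 and not called without old naive 1, with 0.87, called, and 0.23, not called, on its other probes). Lymphocyte markers gave no comparable counts: of 12 T and NK cell markers 0 rose and 0 fell (median 0.01; the smallest p was that of Nkg7, 0.28 ± 0.16, adjusted p = 0.277), and of 8 B and plasma cell markers 1 rose. That 1 was Sdc1 (1.63 ± 0.27), which encodes syndecan and is also made by other cells. Most lymphocyte markers were dim. Of those on the array, 19 of 24 for T and NK cells and 8 of 12 for B and plasma cells reached no more than the 40th percentile of the probes on at least 1 old array. The lack of calls therefore says little about lymphocytes.

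**Figure D3:**
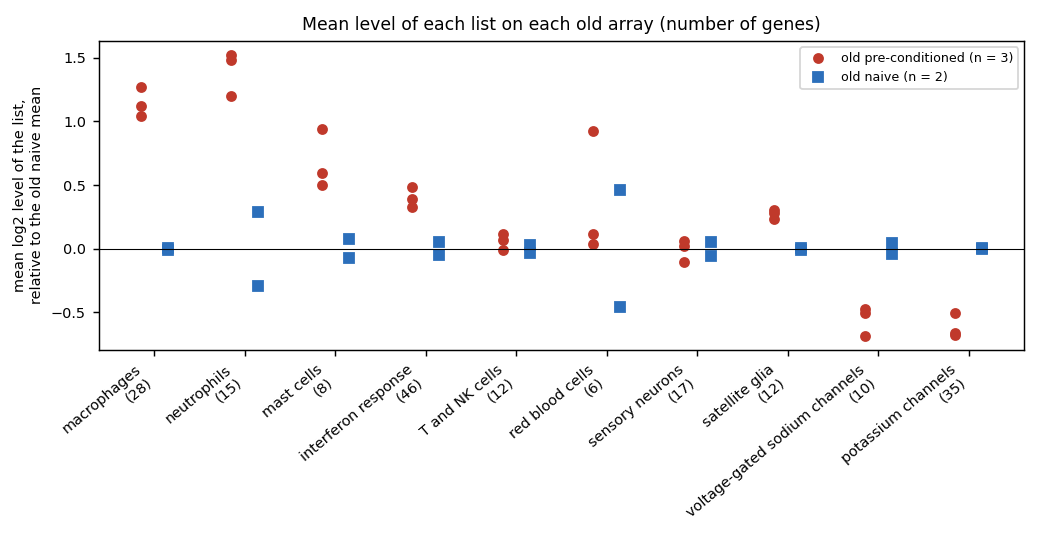
Mean log2 level of 10 gene lists (number of genes in parentheses) on each of the 3 old pre-conditioned arrays (circles) and the 2 old naive arrays (squares), relative to the old naive mean. Macrophage and neutrophil lists lie above 1 on each pre-conditioned array, and sodium and potassium channel lists below -0.4. Sensory neuron markers, which include the growth gene Gap43, lie between -0.10 and 0.06 on all 5 arrays.

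Of 46 interferon response genes, 16 rose, 30 were not called and 0 fell, with a median of 0.35, but the count depended on the naive arrays: 5 rose without old naive 1, 10 without old naive 2 and 13 without old pre-conditioned 1. Usp18, a protease that removes the ubiquitin-like protein ISG15, had 9.69, 9.62 and 9.23 on the old pre-conditioned arrays, against 7.98 and 8.27 on the old naive arrays, a rise of 1.39 ± 0.30 (1.25 and not called without old naive 1). Its other probes gave 1.34 (called) and 0.77 (not called). Oas1g, an oligoadenylate synthetase gene of the antiviral response, had 8.50, 8.39 and 8.09 on the old pre-conditioned arrays, against 7.42 and 7.28 on the old naive arrays, a rise of 0.98 ± 0.17. Both genes were separate between the groups, with old pre-conditioned 3 the lowest of the injured ganglia. Ifi30, a lysosomal thiol reductase gene, rose by 0.97 ± 0.15 (0.27 and not called on its other probe) and the GTPase gene Mx2 by 0.87 ± 0.14. Rsad2, which encodes viperin, rose by 0.77 ± 0.18 (0.61 and not called without old naive 1), Ifitm2 by 0.56 ± 0.10 and the signal transducer gene Stat2 by 0.54 ± 0.16. The call of Stat2 ended in 7 fits that left out 1 array: either old naive array, old pre-conditioned 1 (0.36) or any of 4 young arrays.

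Genes induced by type I interferon are known to carry an interferon-stimulated response element. The core, a GAAA repeated after any 2 bases, was searched on both strands of the 250 bases before each start. It was found in 13 of the 33 interferon response genes with a promoter in the table, in 8 of the 12 such genes that rose and in 5 of the 21 that were not called, against 3.46% of all 27025 genes and 3.21% of the tested genes. The 4 windows below, of genes that rose, are printed as above with the match in capitals.
Oas1g: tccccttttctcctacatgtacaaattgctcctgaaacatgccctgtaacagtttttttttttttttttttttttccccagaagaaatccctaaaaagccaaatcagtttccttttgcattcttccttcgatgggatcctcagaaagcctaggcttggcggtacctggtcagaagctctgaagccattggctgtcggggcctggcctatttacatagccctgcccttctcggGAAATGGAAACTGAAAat
Ifitm2: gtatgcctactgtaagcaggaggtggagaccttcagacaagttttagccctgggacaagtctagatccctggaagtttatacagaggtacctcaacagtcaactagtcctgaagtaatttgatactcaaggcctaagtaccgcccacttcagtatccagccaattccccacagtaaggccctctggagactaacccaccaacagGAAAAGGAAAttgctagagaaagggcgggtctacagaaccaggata
Rsad2: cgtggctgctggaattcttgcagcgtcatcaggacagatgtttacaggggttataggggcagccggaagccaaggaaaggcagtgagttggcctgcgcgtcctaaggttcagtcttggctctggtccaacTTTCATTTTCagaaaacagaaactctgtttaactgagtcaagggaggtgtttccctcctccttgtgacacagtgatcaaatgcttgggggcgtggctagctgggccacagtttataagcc
Stat2: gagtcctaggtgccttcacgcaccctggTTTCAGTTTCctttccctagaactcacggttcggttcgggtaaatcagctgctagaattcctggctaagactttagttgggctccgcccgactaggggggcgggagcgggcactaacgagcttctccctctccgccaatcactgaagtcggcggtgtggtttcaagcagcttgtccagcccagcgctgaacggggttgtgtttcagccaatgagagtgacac
The windows are chr5:120887614-120887863 (Oas1g, minus strand), chr7:140955962-140956211 (Ifitm2, minus strand), chr12:26456453-26456702 (Rsad2, minus strand) and chr10:128270248-128270497 (Stat2, plus strand). In Oas1g 2 overlapping matches begin 18 and 12 bases before the start. The match begins 46 bases before the start in Ifitm2, 120 in Rsad2 and 222 in Stat2, the last 2 on the opposite strand. A match is a description of the letters, since binding was not measured.

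Antigen presentation genes gave 3 increases and 0 decreases of 24 (median 0.23), and 0 remained called without old naive 1. The increases lay little above the 8.1% of all genes that rose. The genes that rose were Cd74, the invariant chain gene (0.73), the proteasome subunit gene Psmb9 (0.54) and the co-stimulatory gene Cd86 (0.48). Each lost its call without either old naive array. Other probes of Cd74 (0.83) and Cd86 (0.28 and 0.47) were not called.

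Proliferation genes rose in part: 13 of 42 rose and 1 fell, with a median of 0.18. By far the largest increases were those of Kif22 and Prc1. Kif22, a chromosome-binding kinesin, had 12.65, 12.77 and 12.71 on the old pre-conditioned arrays, against 9.57 and 9.51 on the old naive arrays, a rise of 3.17 ± 0.09 (8.99-fold). Prc1, a microtubule-bundling protein of the dividing cell's midzone, rose by 2.36 ± 0.10. The arrays of each group differed little in both genes. Hmgb2 (0.98), the mitotic kinase gene Cdk1 (0.93), the replication helicase gene Mcm6 (0.91), Uhrf1 (0.90), the centromere protein gene Cenpa (0.88) and Cdca3 (0.73) rose by less, and each was called in every fit with 1 array left out. Other probes of Cdca3 (0.27) and Mcm6 (0.44, and 0.69, called) gave less. The decrease was that of Dut (-0.70), named here after its value was seen and not called without old naive 1.

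Of 30 genes of apoptosis and the p53 response, 10 rose and 2 fell, with a median of 0.17. Gadd45a, a DNA damage and stress gene, had 13.51, 13.54 and 13.33 on the old pre-conditioned arrays, against 10.66 and 10.79 on the old naive arrays, and Gadd45g rose by 1.60 ± 0.15. Tnfrsf12a, the receptor of the cytokine TWEAK, rose by 1.93 ± 0.15, the cell cycle inhibitor gene Cdkn1a by 1.67 ± 0.12 and the caspase gene Casp6 by 1.30 ± 0.13. The anti-apoptotic gene Mcl1 rose as well, by 0.55 ± 0.11, but was not called when only the 5 old arrays were fitted. The 2 that fell were Bcl2 (-0.72), also anti-apoptotic, and Bid (-0.56), pro-apoptotic, both named here after their values were seen, and neither was called without old naive 1. Of 23 genes of the unfolded protein response, 2 rose, near the 8.1% of all genes that rose, and 0 fell. Those that rose were Chac1, a glutathione-degrading enzyme, by 2.08 ± 0.14, and Nupr1 by 0.58 ± 0.15 (not called without either old naive array or old pre-conditioned 2).

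Lysosome and phagocytosis genes gave 11 increases and 1 decrease of 43, with a median of 0.16 (6 increases without old naive 1). Plin2, which coats lipid droplets, rose by 2.08 ± 0.19, and Gpnmb, a glycoprotein of lipid-laden macrophages, by 1.46 ± 0.21 (0.71, called, on its other probe). The cathepsin gene Ctsh rose by 1.34 ± 0.16 and the tetraspanin gene Cd63 by 1.18 ± 0.11. Of 56 matrix and remodelling genes, 12 rose and 1 fell (median 0.26, 7 increases without either old naive array). Mmp16, a membrane-bound metalloproteinase gene, rose by 2.56 ± 0.14 and Timp1, a metalloproteinase inhibitor gene, by 2.06 ± 0.19. Tgfbi, a matrix protein gene, rose by 1.20 ± 0.17 and the metalloproteinase gene Adam8 by 1.12 ± 0.16, while Bcan, which encodes the proteoglycan brevican, fell by 0.87 ± 0.15.

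Arginine and polyamine genes, which have been linked to the conditioning effect through cAMP, belong to a list of 35 in which 4 rose and 4 fell (median 0.05). These counts lay little above the shares over all genes, of which 8.1% rose and 8.47% fell. Without old naive 1, 2 fell, and without old pre-conditioned 1, 7 rose. Odc1, the first enzyme of polyamine synthesis, rose by 1.04 ± 0.11. Arg1 had 7.02, 7.15 and 6.95 on the old pre-conditioned arrays, against 6.09 and 6.44 on the old naive arrays, a rise of 0.77 ± 0.14 (adjusted p = 0.00266). Arg2 rose by 1.01 ± 0.22 (0.83 and not called without old naive 1). Of 39 genes of oxidative stress and metal handling, 8 rose and 2 fell (median 0.09), among them the transferrin gene Trf (1.497 ± 0.16), the sulfiredoxin gene Srxn1 (1.17 ± 0.11) and the NADPH oxidase subunit genes Ncf4 (1.13 ± 0.12) and Cyba (1.11 ± 0.13).

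Energy and lipid metabolism gave few calls, near or below the share over all genes. Of 49 oxidative phosphorylation genes 1 rose and 1 fell (median -0.06), of 23 glycolysis and glucose transport genes 1 rose and 3 fell (median 0.00, with 0 decreases without either old naive array), and of 24 cholesterol synthesis genes 1 rose and 0 fell (median 0.05). The increases included Slc2a1, the glucose transporter gene, at 1.07 ± 0.15, and Hsd17b7 at 1.01 ± 0.11.

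Of 17 sensory neuron markers 2 rose and 5 fell, with a median of -0.09. The mean level of the list was -0.10, 0.06 and 0.02 on the old pre-conditioned arrays, against -0.05 and 0.05 on the old naive arrays, so the groups overlapped. That mean includes Gap43, also a growth gene, whose rise of 1.72 lifts it on the pre-conditioned arrays. The overlap is therefore not shown for the other markers, and the neuronal content of the ganglia was not tested. Those that rose were Gap43 and Elavl3 (0.44, not called without either old naive array), and those that fell included Rbfox3 (-0.76), a neuronal splicing factor gene, Isl1 (-0.43) and Nefh. None of the 5 decreases was called without old naive 1. Of 12 satellite glia markers 1 rose, Ptgds, a prostaglandin synthase gene (1.68 ± 0.42, not called without either old naive array), and the mean level of the list was 0.31, 0.28 and 0.23 on the old pre-conditioned arrays, against 0.01 and -0.01 on the old naive arrays. Of 17 myelinating Schwann cell markers 1 rose, Gldn (0.43, not called without either old naive array or old pre-conditioned 2), and of 13 repair Schwann cell markers 3 rose, each of which also belongs to a list above: Gap43, Jun and Gfra1. Mbp, the myelin basic protein gene, was not called on its brightest probe (-0.04 ± 0.10), while another of its probes fell by 0.86 (-0.86, adjusted p = 0.00288). Vessel and connective tissue markers gave 2 increases of 20 for endothelium, 1 of 14 for pericytes and smooth muscle and 4 of 18 for fibroblasts (2 without old naive 1 and 0 without old naive 2), with 0 decreases in each. The counts for endothelium, for pericytes and smooth muscle, for satellite glia and for myelinating Schwann cells lay near the 8.1% of all genes that rose. Skeletal muscle markers lay between -0.14 and 0.01 on the old arrays, and at 1.43 on young pre-conditioned 3.

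The response at 24 months was set against that at 2 months, where 1001 genes rose (8.68%) and 1087 fell (9.43%). The 2 contrasts share no array, but share the estimate of each gene's spread. Of the genes called in old ganglia, 717 rose and 748 fell at both ages, 0 were called in opposite directions, and 1890 of 1911 had the same sign at 2 months. Another 217 genes rose and 229 fell at 24 months without being called at 2 months. The test of the difference between the responses called 0 genes (0%) by limma, with 346 at an unadjusted p under 0.05 and a smallest adjusted p of 0.999. The median standard error of that difference was 0.18, against 0.13 for the response at 24 months alone. A response that passed the test at 1 age and missed it at the other is therefore not shown to differ.

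**Figure D4:**
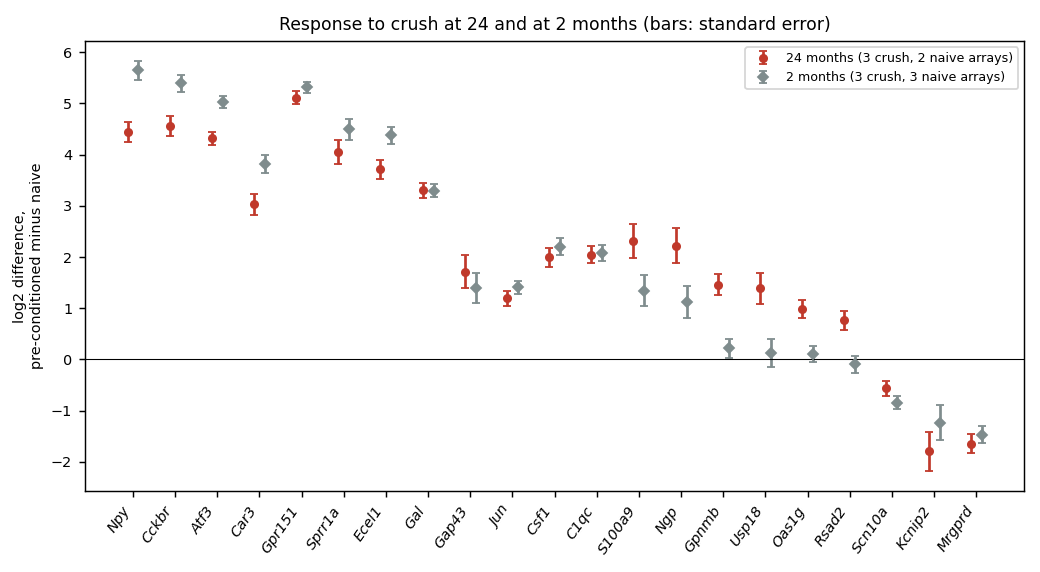
Log2 difference of pre-conditioned minus naive ganglia (vertical axis) at 24 months (circles, 3 and 2 arrays) and at 2 months (diamonds, 3 and 3 arrays) for 21 genes named in the text; bars are standard errors from the model. Npy rose by 4.44 at 24 months and by 5.65 at 2 months, Gal by 3.30 at each, and Gpnmb by 1.46 at 24 months, with 0.22 and no call at 2 months; the test of the difference called none of them.

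The 5 genes with the smallest p for the difference, none of them past the threshold, were Gpnmb, Npy, Sppl2c, Epha3 and Auh. Gpnmb had 10.38, 11.15 and 10.71 on the old pre-conditioned arrays, against 9.56 and 9.02 on the old naive arrays, a rise of 1.46 ± 0.21 at 24 months and 0.22 ± 0.18, not called, at 2 months (difference 1.24 ± 0.28, unadjusted p = 0.000684). The other probe of Gpnmb gave a smaller rise at 24 months, 0.71, which was called. Npy gave 4.44 at 24 months, against 5.65 at 2 months (difference -1.20 ± 0.27). Sppl2c gave 0.62 at 24 months (0.44 and not called without old naive 2), against -0.39 at 2 months (difference 1.01 ± 0.21). Its other probe gave -0.07 at 24 months, and the mean of its probes 0.27, neither called. Epha3, an ephrin receptor gene, gave -0.03 at 24 months, against 0.75 at 2 months (difference -0.78 ± 0.18). Its other probes gave 0.42 and 0.04 at 24 months, neither called. Auh gave -0.66 at 24 months, against -0.00 at 2 months (difference -0.65 ± 0.15). Atf3 gave 4.32 at 24 months, against 5.03 at 2 months (difference -0.71 ± 0.18), and Cckbr 4.56 at 24 months, against 5.39 at 2 months (difference -0.84 ± 0.26). Gal gave 3.30 at both ages, and Gpr151 5.12 at 24 months, against 5.32 at 2 months. Among the lists, interferon response genes gave 16 increases at 24 months and 5 at 2 months, with medians of 0.35 at 24 months and 0.12 at 2 months. Neutrophil markers gave 12 increases at 24 months (median 1.70) and 7 at 2 months (median 0.77), and mast cell markers 5 at 24 months and 2 at 2 months. The 24-month counts of the interferon, neutrophil and mast cell lists were lower without old naive 1. The young arrays varied as well. Relative to the old naive mean, the neutrophil list lay at 0.37, 0.39 and 1.02 on the young pre-conditioned arrays. On the young naive arrays it lay at -0.32, -0.19 and -0.01. The interferon list lay at 0.22, 0.18 and 0.29 on the young pre-conditioned arrays. It overlapped with the young naive arrays, at 0.24, -0.08 and 0.10. Counts of calls at each age do not test a difference between ages. Macrophage markers gave 24 increases at 24 months (median 1.29) and 23 at 2 months (median 1.28), sodium channel genes 9 decreases at each age and potassium channel genes 23 at each. At the level of single genes, 8 of the 46 interferon response genes and 5 of the 15 neutrophil markers had an unadjusted p under 0.05 for the difference. So did 5 of 24 antigen presentation genes, 7 of 43 lysosome and phagocytosis genes and 346 of all 11529 genes tested. After adjustment 0 passed.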

How the data were processed

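RNA of 11 labelled ganglion samples was measured on Illumina bead arrays, and the 5 from 24-month-old mice were compared here. The deposited table gives intensities that the authors did not normalise, and 1 of its columns matched no labelled sample and was not used. The submitters' processing notes name RMA. The authors' deposited processed table, used as an alternative, ranked probes in the same order (Spearman 1).

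Intensities were corrected with normexp (offset 50), quantile normalised and taken to log2 with limma 3.58.1 in R 4.3.3. Probes above the 40th percentile on at least 2 arrays were kept (17086 of 25697). Of all probes, 23978 had 1 gene symbol, 0 several and 1719 none. The brightest probe stood for each of 11529 genes. A model of the 4 groups was fitted to all 11 arrays, giving 7 residual degrees of freedom, and contrasted injury at 24 months, at 2 months and their difference. It was tested on simulated data. Other corrections, scalings, filters, probe rules, variance models, a replicate block and the omission of each array were tried.

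The members and the gene lists were chosen with earlier results of these data known. Genes were named by rule: the 20 largest increases and decreases among called genes without overlap, up to 8 called members of each list by smallest p (or the member with the smallest p where none was called), a fixed set of injury genes, and the 5 genes with the smallest p for the difference between ages. Promoters came from RefSeq (GRCm38.p6), which matched 9285 of the tested genes.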

Additional observations from a re-analysis of the deposited data

How the results depend on the processing

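The number of genes changed after crush in old ganglia was 1911. It was 1065 under median scaling, 916 when only the 5 old arrays were fitted and 296 with a minimum of 2-fold. It ranged between 997 and 2294 over the fits that left out 1 array each, with the low values 997 without old naive 1 and 1228 without old naive 2. Under the other alternatives it stayed within 1.5 times the reported count. The difference between the responses at 24 and 2 months called 0 genes under every alternative. With the replicate number as a replicate block 1744 genes changed, 1631 of them among the 1911. Same-numbered arrays correlated between -0.368 and 0.251 in their deviations from the group means, so the numbers were not taken as a pairing.

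Among genes not called, the sign of the difference at 24 months turned for Bdnf (0.006983 under cyclic loess, 0.089 under median scaling, 0.487 with the mean of its probes), Egr1 (0.049 under median scaling, 0.028 with the replicate block), Epha3 (0.146 with the mean of its probes, 0.026 with the replicate block) and Ntrk2 (0.017 under median scaling). Over the fits that left out 1 array, Bdnf ranged between -0.07478 and 0.01832, Egr1 between -0.1282 and 0.03867, Epha3 between -0.09938 and 0.03768, Nkg7 between -0.01681 and 0.5674 and P2rx3 between -0.06049 and 0.1376. The cause was not tested. Median scaling also ended the calls of 14 named genes: Cacna1h, Cacna2d3, Cacnb4, Cd74, Cd86, Cebpb, Gldn, Isl1, Nefh, Ntrk3, Oprk1, Scn10a, Sppl2c and Stat2. Fitting only the 5 old arrays ended the calls of Cacna2d3, Cd74, Cd86, Cebpb, Cplx2, Crem, Elavl3, Gldn, Hcn2 and Isl1. It also ended those of Kcnip2, Mcl1, Nefh, Ntrk3, Oprk1, Rbfox3, Rsad2, Scn10a, Sppl2c and Stat2. In that fit 4 sodium channel genes, 16 potassium channel genes and 2 genes of synaptic release fell. Without background correction the differences of some genes shrank over 1.5 times with the same direction, among them Grp (0.82), Arg1 (0.43), Cdk1 (0.54), Uhrf1 (0.54), Chrna5 (0.53), Oprd1 (-0.34) and Auh (-0.40). With 2 old naive arrays, each of them carries much of the count, and the number of arrays limits the precision.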

Other observations

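Lists of cells that are scarce in a ganglion held single called genes, where 8.1% of all genes rose and 8.47% fell. Of 6 spinal cord glia markers 1 fell, the water channel gene Aqp4, and of 12 skeletal muscle markers 1 fell, the parvalbumin gene Pvalb, which proprioceptive neurons also express. Of 7 adipocyte markers 1 rose, Car3, and 1 fell, Cidea. Each list otherwise held no called gene in old ganglia. Single calls in lists this small say little about the cell types.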
